A study of Gallus gallus with 9 samples.

Results

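The step from the onset of small intestinal looping to looping under way was examined in the dorsal mesentery of chick embryos. The comparison set the 3 libraries of embryonic day 12 (E12) against the 3 libraries of embryonic day 8 (E8), which are 6 of the 9 libraries of the series, chosen by the stage in the sample titles. All embryos were wild type White Leghorn chickens, untreated, and every library held mesenteries of 3 pooled embryos with the gut tube and the superior mesenteric artery taken off. Poly(A) RNA was sequenced as read pairs. The other 3 libraries, of embryonic day 16 (E16), were in the same fit and helped to estimate the spread between replicates. They also had a part in the choice of tested genes, the scaling of libraries and the average levels by which genes were ranked. Nothing in the labels says how embryos were assigned to pools beyond their number, so each p-value measures the spread between pools.

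The dorsal mesentery is a thin double membrane that suspends the intestine from the dorsal body wall and carries its vessels, nerves and lymphatics. It consists of loose mesenchyme between sheets of mesothelium. As the gut tube lengthens faster than the membrane it is attached to, the membrane is stretched and the tube is compressed until it buckles into loops, so growth and stiffness of the mesentery bear on the shape of the gut. The question put to this step was which genes changed between the start of that process and its middle.

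The deposited table lists genes by Ensembl identifier only. None of its 24356 identifiers (0) was found in the RefSeq chicken gene table used here, so no gene could be named, no protein or pathway could be assigned, and the tissue label could not be checked against mesothelial, fibroblast or gut markers. The results therefore describe genes by their level, direction and size of change. In whole tissue, fewer cells of a type and less RNA per cell cannot be told apart. Reads counted in genes ranged from 24.3 M (mega) to 29.9 M per library at E8 and from 29.6 M to 30.6 M at E12. The share of all reads that fell outside annotated features was 20.0%, 19.8% and 20.4% in E8 replicates 1, 2 and 3, and 16.6%, 11.0% and 13.5% in E12 replicates 1, 2 and 3. Every E12 library was below every E8 library, a difference for which an exact two-sided permutation test of 3 against 3 gave p = 0.1, the smallest value that the design allows. In E16 replicates 1, 2 and 3 the share was 20.2%, 19.6% and 18.3%, above that of every E12 library. Between E8 and E12 this library property runs alongside the stage, and its part in the gene results cannot be told apart from that of the stage.

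Just over 50% of the expressed genes changed. By the quasi-likelihood test of edgeR, 8092 of 15506 tested genes (52.2%) passed a Benjamini-Hochberg adjusted p under 0.05. Of these, 3989 genes (25.7% of those tested) rose and 4103 (26.5%) fell. Changes are given relative to the typical gene under the trimmed-mean scaling used, TMM, under which the tested genes had a median log2 fold change of -0.03. Scaling by total counts alone moved that median to -0.29 and gave 2297 rises and 5680 falls, so the balance of rises and falls depended on the scaling. Levels are given as CPM, the counts per M of a library's TMM-scaled gene counts, and no gene lengths were at hand, so a high level can reflect a long transcript as well as many copies of it.

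Most of the changes were small. The median called rise was 0.76 on the log2 scale, or 1.69-fold, and the median called fall was -0.96, or 1.94-fold. Of the genes that rose, 741 changed by under 0.5 on the log2 scale, 2006 by 0.5 to 1, 941 by 1 to 2, 222 by 2 to 3 and 79 by 3 or more. Of the genes that fell, 489 changed by under 0.5, 1694 by 0.5 to 1, 1563 by 1 to 2, 293 by 2 to 3 and 64 by 3 or more. The smallest called change in either direction was 0.25 on the log2 scale, beside a median standard error of 0.19 over all tested genes. A change of at least 2-fold was reached by 31.1% of the genes that rose, but by 46.8% of those that fell. These shares pool genes of all read levels. The difference was not seen among the genes with the highest levels (decile 10, below).

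Called genes with at least a 2-fold change numbered 3162, or 20.4% of those tested, with 1242 higher (8.01%) and 1920 lower (12.4%). A further 329 genes had a fitted change of at least 2-fold without passing the test, 70 higher and 259 lower. The split of the called 2-fold changes depended on the scaling, with 790 higher and 2945 lower when libraries were scaled by total counts only. With the outside-feature read share as a covariate it was 323 higher and 147 lower, in a fit that cannot part that share from the stage. When each gene was tested against a 2-fold change instead of against no change (edgeR's glmTreat, adjusted p under 0.05), 962 genes passed under TMM, 474 higher and 488 lower. That test was run under no other scaling.

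**Figure D1:**
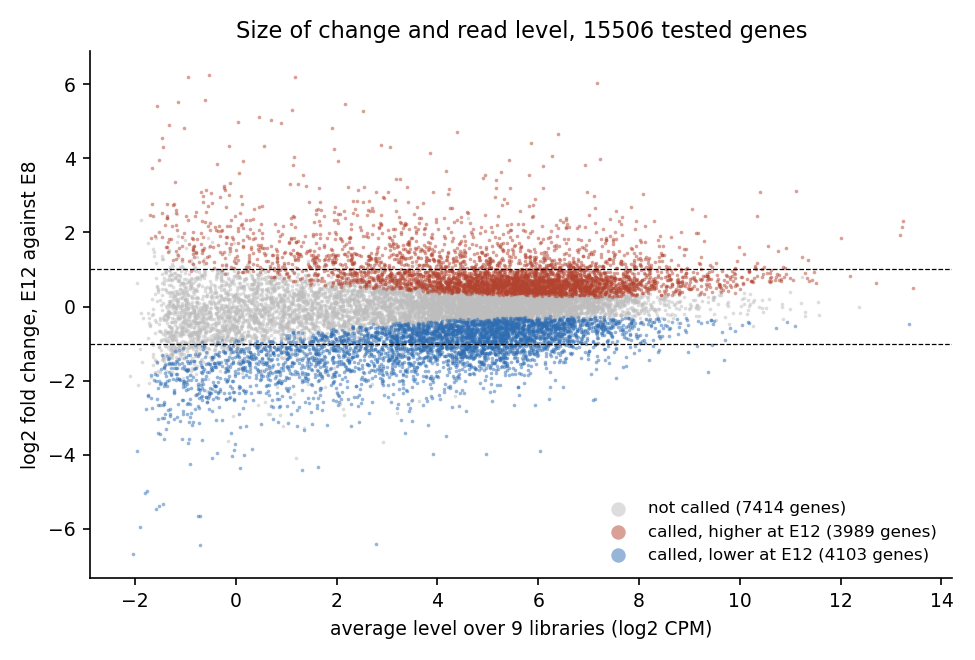
Each point is 1 of the 15506 tested genes, with its average level over the 9 libraries (log2 CPM) on the horizontal axis and its log2 fold change at E12 against E8 on the vertical axis. Dashed lines mark 2-fold changes. The 3989 genes called higher lie mostly between the zero line and the upper dashed line and reach to the highest levels. The 4103 called lower are densest at middle levels.

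The direction of change differed with the number of reads a gene received. Genes were ranked by their average level over all 9 libraries and divided into 10 groups of equal size, from decile 1 (lowest, 0.23 to 0.97 CPM) to decile 10 (highest, 127 to 11071 CPM). In decile 10, 783 of 1551 genes (50.5%) rose and 252 (16.2%) fell. In decile 1, 134 of 1551 genes (8.64%) rose and 312 (20.1%) fell. Falls outnumbered rises in each decile from 1 to 7, and rises outnumbered falls in deciles 8, 9 and 10. The median log2 fold change of all genes in a decile went from -0.44 in decile 1 through -0.09 in decile 5 to 0.33 in decile 10. The filter kept a gene if enough libraries reached its minimum, and the libraries of 1 stage were enough. In decile 1 a gene could thus be tested only through the stage in which it was high, which limits what the direction there means.

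Among the 100 genes with the highest mean level, 63 rose and 6 fell, and their median log2 fold change was 0.70. Among them, 21 rose by at least 2-fold and 0 fell by as much. By edgeR's test this compares with 25.7% of all tested genes called higher and 26.5% called lower. Rises stayed in the majority in these 100 genes with total counts only (60 higher, 12 lower), and in decile 10 the split became 518 higher and 404 lower under that scaling. In decile 1 the same scaling gave 89 rises and 410 falls. With the outside-feature read share as a covariate, decile 10 had 77 rises and 20 falls, and decile 1 had 11 rises and 2 falls. The medians of deciles 10 and 1 were then 0.02 and 0.08, in a fit that cannot part that share from the stage. Genes were also ranked by their mean log2 CPM over the 6 E8 and E12 libraries, so that E16 had no part in the ranking. This gave 752 rises and 241 falls in decile 10 and 179 rises and 315 falls in decile 1. In either ranking the E8 and E12 values enter both the rank and the change, so the 2 are not independent. No ranking on libraries outside the comparison was made.

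**Figure D2:**
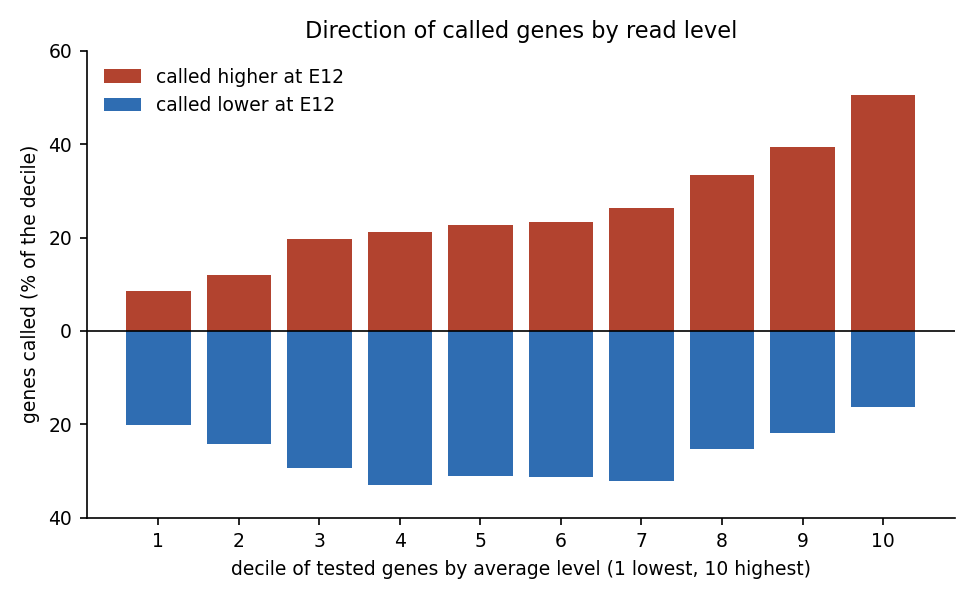
Bars give the percentage of genes in each decile of average level that edgeR called higher at E12 (above the zero line) or lower (below it). The share called higher climbs from 8.64% in decile 1 to 50.5% in decile 10, and the share called lower goes from 20.1% through a maximum of 33.0% in decile 4 to 16.2%.

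Precision also changed with level. The median standard error of the log2 fold change was 0.52 in decile 1 and 0.14 in decile 10, and the share of genes called was 28.8% and 66.7%. Called changes were larger where counts were low, with a median absolute log2 fold change of 1.98 in decile 1 and 0.68 in decile 10. Genes of decile 1 that passed the filter through 1 stage alone are prone to large changes by construction. In decile 1, 440 of the 446 called genes had changed by at least 2-fold, so smaller changes were seldom detectable at that depth. These were 131 of the 134 rises and 309 of the 312 falls. In decile 10, 220 of 1035 had changed as much, 181 of the 783 rises and 39 of the 252 falls. The larger 2-fold share of falls over all called genes was thus not seen in decile 10.

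Each class of genes spanned a wide range of levels. Genes that rose had a median level of 31.7 CPM at E8 (middle 50% of genes 8.07 to 77.2) and 52.6 CPM at E12 (16.9 to 129). Genes that fell had a median of 25.6 CPM at E8 (7.68 to 56.9) and 13.1 CPM at E12 (3.12 to 32.2). Genes that were not called stood at 14.2 CPM at E8 and 14.1 CPM at E12. The genes that rose by at least 2-fold went from a median of 5.35 to 17.2 CPM, and those that fell by at least 2-fold from 10.9 to 3.64 CPM.

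The share of all gene counts taken up by each class of genes also shifted. The genes that rose took 37.3% ± 0.07 of all gene counts at E8 and 55.4% ± 4.50 at E12 (SD, n = 3 each). The genes that fell took 24.9% ± 0.19 at E8 and 12.5% ± 2.46 at E12. The genes not called took 37.7% ± 0.18 and 32.1% ± 2.10. These shares describe genes chosen by the same comparison, so no test was made on them. Genes with at least a 2-fold rise, a part of the rising class, took 6.40% ± 0.24 at E8 and 15.4% ± 1.59 at E12. Those with at least a 2-fold fall took 6.29% ± 0.11 and 2.07% ± 0.54.

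A measure that does not depend on the calls moved the same way. The number of genes that together held 50% of all gene counts was 1005, 1066 and 1043 in E8 replicates 1, 2 and 3. It was 828, 634 and 667 in E12 replicates 1, 2 and 3, so every E12 library was more concentrated than every E8 library, and E12 replicate 1 lay nearest to E8. The 100 most counted genes of each library held 18.0% to 18.7% of its gene counts at E8 and 21.7% to 24.8% at E12. Genes at 1000 CPM or more numbered 72 to 77 at E8 and 105 to 138 at E12. Unlike the shares, that number depends on the TMM factors, which were 1.09 to 1.13 at E8 and 0.85 to 1.01 at E12. A lower factor raises the CPM of a library. The identity of the top genes was largely kept, as 76 of the 100 most counted genes at E8 were also among the 100 most counted at E12, and 7 of the top 10 were shared.

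Genes that crossed between near absence and presence were few and had low counts. A gene was counted as gained when it was under 0.5 CPM in each E8 library and at least 1 CPM in each E12 library, and as lost in the reverse case. Of the 24356 genes in the table, 36 were gained and 32 were lost. All 36 and all 32 passed the edgeR test in the matching direction, which the definition all but fixes.

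The gained genes had a median level of 1.76 CPM at E12, and the highest of them reached 8.39 CPM. Summed over the 36 genes, the level was 8.34, 7.20 and 6.49 CPM in E8 replicates 1, 2 and 3 and 80.7, 105 and 83.1 CPM in E12 replicates 1, 2 and 3. At E16 their sum was 205 to 237 CPM, and 27 of the 36 were at least 1 CPM in each E16 library, while 1 was under 0.5 CPM in each. The gained genes thus mostly stayed present at the end of looping.

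The lost genes had a median level of 1.60 CPM at E8, and 1 of them reached 19.6 CPM. Their summed level was 65.2, 71.5 and 79.2 CPM in E8 replicates 1, 2 and 3 and 9.01, 6.29 and 6.26 CPM in E12 replicates 1, 2 and 3. At E16, 14 of the 32 were under 0.5 CPM in each library and 4 were again at 1 CPM or more in each. Not 1 of these 68 genes was at a count of 0 in all 3 libraries of its low stage, so each was low and not absent at this depth. The numbers depended on the limits chosen, with 16 gained and 7 lost when the low limit was 0.25 CPM, and 9 gained and 3 lost when the high limit was 2 CPM. Without E12 replicate 1 the lost genes numbered 93, and without E8 replicate 2 they numbered 59.

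Changes of at least 8-fold were more common than these crossings. The 79 genes that rose by at least 8-fold had a median level of 0.25 CPM at E8 and of 4.13 CPM at E12, and 54 of them were under 1 CPM on average at E8. At E12, 20 of the 79 were still under 1 CPM on average, 26 stood at 10 CPM or more, and the highest reached 3211 CPM. The 64 genes that fell by at least 8-fold went from 1.59 to 0.11 CPM, with 54 of them under 1 CPM on average at E12. At E8, 22 of the 64 had been under 1 CPM on average already, and only 11 had stood at 10 CPM or more.

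Among the genes eligible for naming (average log2 CPM of at least 3, called, and with no overlap between the stages), 3170 were higher and 2802 lower. From each direction the largest change on the log2 scale and the largest change in CPM were taken. The largest rise among them was that of ENSGALG00000033171, which stood at 0.99, 0.56 and 0.46 CPM in E8 replicates 1, 2 and 3 and at 30.4, 59.0 and 40.6 CPM in E12 replicates 1, 2 and 3. The E8 values rest on 26, 17 and 15 reads, and the stages did not come near each other. With the outside-feature read share as a covariate, its log2 fold change went from 6.04 to 4.93. In rank of mean level it moved from place 14370 to place 4888 among all genes in the table.

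The largest gain in CPM among them was that of ENSGALG00000041555. It stood at 3603, 2606 and 3393 CPM in the E8 libraries and at 10155, 16789 and 15235 CPM in the E12 libraries, in the order of their replicate numbers. Every E12 library was well above every E8 library, with replicate 1 the lowest at E12. Its log2 fold change was 2.14 (SE 0.20, edgeR adjusted p of 7.62e-06), and it went from the seventh most counted gene at E8 (rank 7) to the most counted at E12 (rank 1). When single libraries were left out, the log2 fold change lay between 1.99 and 2.38. With the outside-feature read share as a covariate it was 1.36, and the gene was still called (edgeR adjusted p of 0.0235).

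The largest fall among the eligible genes was that of ENSGALG00000035309. It stood at 68.6, 149 and 42.1 CPM in E8 replicates 1, 2 and 3 and at 3.25, 5.57 and 7.57 CPM in E12 replicates 1, 2 and 3. The E8 libraries differed among themselves by a factor larger than any seen at E12, yet the lowest of them was far above the highest at E12. The edgeR log2 fold change was -3.99 (SE 0.48, adjusted p of 1.81e-04). It lay between -4.30 and -3.29 when single libraries were left out, the smallest fall being that without E8 replicate 2. With the outside-feature read share as a covariate it was -5.30 and the gene was no longer called (edgeR adjusted p of 0.0616).

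The largest loss in CPM among them, in contrast, was a modest change in a gene of very high count. ENSGALG00000032142 was the most counted gene at E8, with 12117, 11488 and 9770 CPM in replicates 1, 2 and 3, and stood at 8073, 7040 and 9007 CPM in E12 replicates 1, 2 and 3. The lowest E8 library was only slightly above the highest E12 library. Its log2 fold change was -0.47 (SE 0.14, edgeR adjusted p of 0.0161). The call was lost without E8 replicate 1 (edgeR adjusted p of 0.137), without E8 replicate 2 (0.0803) and without E12 replicate 2 (0.0589). At E16 its mean level was 12318 CPM, above that at E8.

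**Figure D3:**
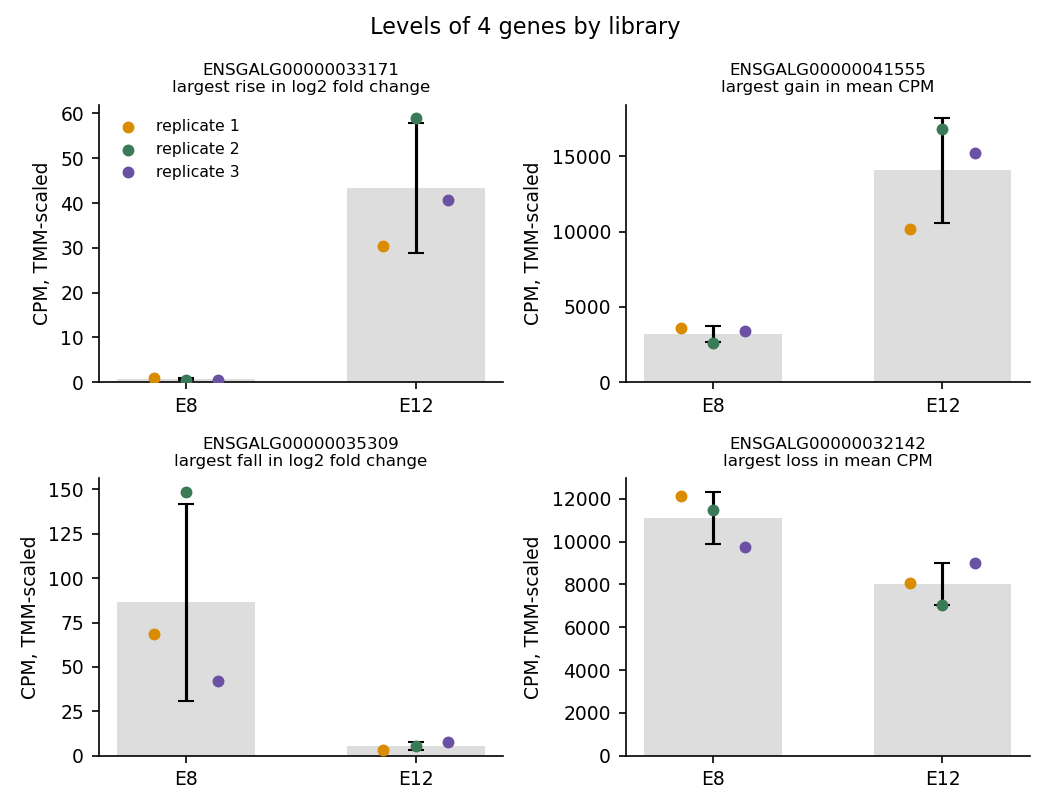
Bars give the mean and error bars the SD of the TMM-scaled level (CPM, linear axes from 0) over the 3 libraries of E8 and of E12, and points give the single libraries, coloured by replicate. As the choice of genes required, the stages do not overlap for any of the 4 genes. The gap is narrow for ENSGALG00000032142, where 9770 CPM at E8 lies beside 9007 CPM at E12.

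In both stages 1 library stood apart from the other 2, replicate 2 at E8 and replicate 1 at E12. Pearson correlations of log2 CPM, taken over genes and so given as descriptions, were 0.993 between E8 replicates 1 and 3, and 0.979 and 0.977 between E8 replicate 2 and each of those. They were 0.986 between E12 replicates 2 and 3, and 0.977 and 0.982 between E12 replicate 1 and each of those. Differences of at least 2-fold separated E8 replicates 1 and 3 in 1.76% of tested genes, and E8 replicate 2 from each of those in 5.51% and 6.02%. Within E12 they were seen in 5.08% of genes between replicates 2 and 3, and in 8.36% and 6.98% between replicate 1 and each of those. The median absolute log2 difference was 0.12 between E8 replicates 1 and 3, and 0.19 and 0.21 between E8 replicate 2 and each of those. Within E12 it was 0.21 between replicates 2 and 3, but 0.36 and 0.34 between replicate 1 and each of those. The median SD of a gene's log2 CPM was 0.15 at E8 and 0.26 at E12.

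E12 replicate 1 lay between E8 and the other 2 E12 libraries. Its median absolute log2 difference from the 3 E8 libraries was 0.38 to 0.40, against 0.36 and 0.34 from its own stage. For E12 replicates 2 and 3 the distance to E8 was 0.62 to 0.69. By correlation and by 2-fold differences, E12 replicate 1 was nearer to its own stage. Its Pearson correlations with the E8 libraries were 0.949 to 0.960, below the 0.977 and 0.982 with E12 replicates 2 and 3. Changes of at least 2-fold separated E12 replicate 1 from the E8 libraries in 15.8% to 17.3% of tested genes, against 28.1% to 31.4% for the other 2. From E12 replicates 2 and 3, changes as large separated it in 8.36% and 6.98%. For 77.0% of the called genes, E12 replicate 1 was the E12 library nearest to E8, against 11.6% for replicate 2 and 11.5% for replicate 3. Among the E8 libraries, the one nearest to E12 was replicate 1, 2 or 3 for 33.0%, 41.6% and 25.4% of the called genes. Its share of reads outside features, 16.6%, was likewise between the E8 values and those of the other E12 libraries, and the part of this property in its position was not tested.

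Even so, the stages were separated in most tested genes. The 3 E12 values lay all above or all below the 3 E8 values for 9354 tested genes (60.3%), 4598 higher (29.7%) and 4756 lower (30.7%). For 3 values against 3 in random order, such a separation has a probability of 0.1, and genes are not independent. The outside-feature read share was separated between the same libraries. Of the 8092 called genes, 7772 (96.0%) did not overlap, and of the 3162 with at least a 2-fold change, 3103 did not. The calls rest on the same values, so the small overlap among called genes follows in large part from the call. A further 1582 genes did not overlap and yet missed the threshold of the test. Between the nearest libraries of the stages, a gap of at least 2-fold was left for 508 of the called rises and 571 of the called falls.

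To see whether the calls held in libraries that had no part in making them, 1 E8 and 1 E12 library were set aside together in each of the 9 possible ways. Genes were called from the rest and then read in the pair set aside, on the scale log2(CPM + 0.5). The TMM factors for that reading came from all 9 libraries. In every pair the E12 library had the lower outside-feature read share, so the pairs cannot part that share from the stage. With E12 replicate 2 or 3 in that pair, 96.0% to 99.2% of the called genes had the same direction. With E12 replicate 1 in it, 90.2% to 92.5% did. The corresponding shares among genes that were not called were 75.1% to 81.5% and 62.6% to 66.1%.

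The size of the change was about kept or larger in E12 replicates 2 and 3, and smaller in replicate 1. For genes called higher, the median difference in the libraries used was 0.76 to 0.79 when E12 replicate 1 was set aside, and the pair set aside showed 0.36 to 0.42. For genes called lower, the corresponding medians were -1.02 to -0.99 and -0.59 to -0.50. With E12 replicate 2 set aside, the medians for genes called higher were 0.80 to 0.87 in the libraries used and 0.98 to 1.11 in the pair set aside. With E12 replicate 3 they were 0.85 to 0.91 and 0.83 to 0.96. For genes called lower they were -1.04 to -0.975 and -1.08 to -0.945 with E12 replicate 2 set aside. With E12 replicate 3 set aside they were -0.998 to -0.922 and -1.26 to -1.09. In these fits replicate 1 was among the libraries used. Replicate 1 thus mostly showed the directions of its stage, with smaller changes.

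**Figure D4:**
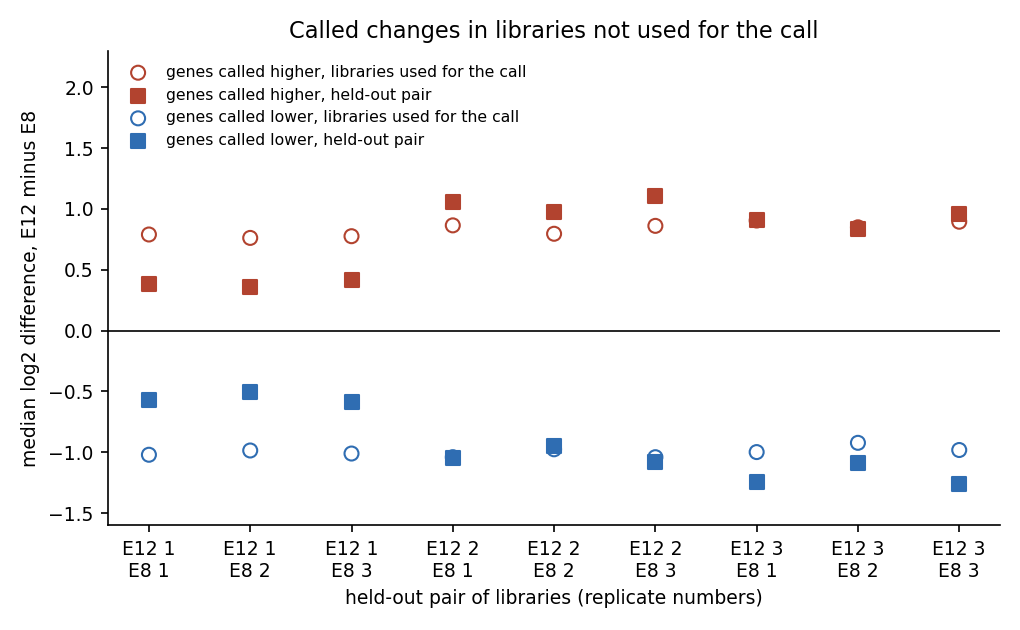
For each of the 9 pairs of 1 E12 and 1 E8 library set aside, open circles give the median log2 difference of called genes in the libraries used for the call and filled squares that in the pair set aside, in red for genes called higher and in blue for genes called lower. The 3 pairs with E12 replicate 1 lie nearest to the zero line, at 0.36 to 0.42 for genes called higher, while the other 6 lie at 0.83 to 1.11.

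The relation of direction to read level was present in each E12 library, with a different strength. Each of these libraries also had a part in the ranking by level. Against the mean of the E8 libraries, the median log2 difference of the decile 10 genes was 0.18, 0.43 and 0.37 in E12 replicates 1, 2 and 3. That of the decile 1 genes was -0.20, -0.55 and -0.40. Replicate 2, with the steepest relation, had the lowest share of reads outside features (11.0%), replicate 3 was in the middle on both (13.5%), and replicate 1 had the flattest relation and the highest share (16.6%). With 3 libraries this order is a description, and the part of the library property in it was not tested. Without E12 replicate 1, edgeR called 916 genes higher and 266 lower in decile 10, and 140 higher and 370 lower in decile 1.

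**Figure D5:**
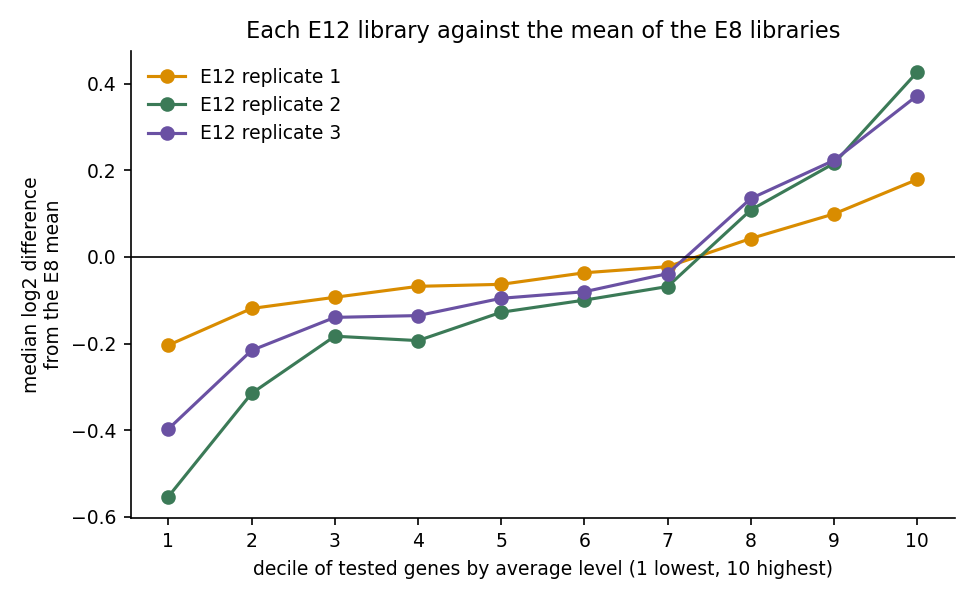
Lines give, for each E12 library, the median log2 difference from the mean of the 3 E8 libraries over the genes of each decile of average level. All 3 lines rise from below zero in decile 1 to above zero in decile 10 and cross it between deciles 7 and 8, and replicate 1 has the flattest line, from -0.20 to 0.18.

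The number of called genes moved with these library differences. Without E12 replicate 1, edgeR called 9322 genes, against 6365 without E12 replicate 2 and 6438 without E12 replicate 3. When the outside-feature read share was added as a covariate, 510 genes were called, 358 higher and 152 lower, of which 494 were among the 8092. In decile 10 this left 77 rises and 20 falls, and in decile 1 it left 11 rises and 2 falls. The medians of these deciles were then 0.02 and 0.08, so the relation to level was not seen in that fit. In that fit the slope on the share comes from differences within stages, which were largest at E12 (SD 2.79, against 0.32 at E8). It is then carried over the gap between the stage means, 20.0% at E8 and 13.7% at E12. Because the slope is carried over that gap, the fit cannot part the share from the stage. The standard error grew for every gene given by identifier. It went from 0.48 to 1.18 for ENSGALG00000035309 and from 0.45 to 0.65 for ENSGALG00000033171. For ENSGALG00000041555 it went from 0.20 to 0.28, and for ENSGALG00000032142 from 0.14 to 0.25.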

How the data were processed

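Poly(A)-selected RNA of pooled dorsal mesentery was sequenced by the submitters. The authors deposited raw counts of reads, 1 value per Ensembl gene and library, without normalization. The submitters' processing notes name cutadapt 3.1, Trim Galore, HISAT2 2.2.1, HTSeq 0.13.5 and build GRCg6a; the annotation release and strand setting are not given in the sources used here, so genes that overlap, lie antisense to each other or have near-identical copies have uncertain counts. The 5 HTSeq category rows stayed out of library sizes and tests, and reads outside features were 11.0% to 20.4% of all reads in the 6 libraries.

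Genes were kept by filterByExpr (15506 of 24356). A model of 3 stage means over all 9 libraries was fitted with edgeR 4.0.16 in R 4.3.3. It used TMM factors and a robust, two-sided quasi-likelihood test with Benjamini-Hochberg adjustment (threshold 0.05). The code was also run on simulated counts in which few genes changed, all of them well counted, with the same spread in every library. That run checks the code and not the error rate in these data. Standard errors were taken as the size of the log2 fold change over the root of F. Log2 CPM used a prior count of 2. DESeq2 1.42.0 and limma-voom (limma 3.58.1) were alternatives.

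Of 25635 RefSeq genes searched, none matched an identifier (0), so the gene lists and markers prepared were not used and 4 genes are given by identifier, chosen among called genes without overlap between the stages whose log2 CPM averaged 3 or more: the largest rise and fall in log2 fold change and the largest gain and loss in CPM. Comparisons and lists were chosen with earlier results of these data known. The ranking by level and the sets of libraries put aside were chosen after the data were seen.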

Additional observations from a re-analysis of the deposited data

How the results depend on the processing

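Within 1.5 times the reported number stayed the called genes (8092) under 18 of 19 alternatives and those with at least a 2-fold change (3162) under 17 of 19. With the outside-feature read share as a covariate, 510 and 470 were called (323 of the 470 higher), and the test against a 2-fold change gave 962. That covariate left 77 rises and 20 falls in decile 10, 11 rises and 2 falls in decile 1, and 11 rises and 0 falls among the 100 most counted genes. Total counts only gave 518 and 404 in decile 10, 89 rises in decile 1 and 12 falls among the 100, and 28.8% of called genes higher against 49.3% with TMM. With a low limit of 0.25 CPM, 16 genes were gained and 7 lost, and with a high limit of 2 CPM, 9 and 3. The stricter limits and the test against a 2-fold change lower the numbers by construction. Leaving out the TMM factors, which were lower at E12 than at E8, lowers E12 levels relative to E8. The cause of the moves with the covariate was not tested.

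With each library left out in turn, called genes ranged from 6365 to 9322, those with at least a 2-fold change from 2689 to 4159, gained genes from 40 to 49, lost genes from 36 to 93, and falls among the 100 most counted genes from 2 (without E8 replicate 1 or without E8 replicate 3) to 6. Fewer libraries must then meet the limits, which raises the gained and lost numbers by construction. Genes without overlap ranged from 8861 to 11603 over all 10 alternatives. Leaving out a library can likewise only raise that number, and gave 9903 to 11603. The lowest number came from a smaller set of genes, those with at least 1 CPM in at least 3 libraries. With only the 6 E8 and E12 libraries in the fit, edgeR called 7500 of 15196 tested genes, 7409 of them among the 8092. With the replicate number as a block, edgeR called 7941 genes, 7745 of them among the 8092. The numbers were taken to mark different pools of embryos and so were not treated as pairs. Deviations of same-numbered E8 and E12 libraries from their stage means correlated at 0.03, 0.17 and 0.08. Those of differently numbered libraries correlated at -0.147 to 0.089, and not every library correlated best with its own number. Of the 4 genes given by identifier, none changed direction under the alternatives run. ENSGALG00000032142 was also not called with all genes of at least 1 count (edgeR adjusted p of 0.0576) or with the covariate (0.622). Depth limits what can be said of genes under 1 CPM, where only changes of about 2-fold or more were called.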
